A study of Mus musculus with 14 samples.

Results

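The genes followed here in mouse cornea RNA were 9 collagens: the 3 chains of beaded collagen VI (Col6a1, Col6a2 and Col6a3), the 2 chains of network collagen VIII (Col8a1 and Col8a2) and 4 chains of fibril-associated collagens (Col9a1, Col12a1, Col14a1 and Col16a1). The members were chosen by gene symbol, and every probe set that carried one of the 9 symbols was taken. The arrays held 18 such probe sets for these 9 genes, out of 45101 probe sets and 18194 genes, and 0 of the 18 were shared with another symbol. RNA was taken from WT and Klf5CN corneas at postnatal day 11 (PN11), shortly before the eyelids open, and at postnatal day 56 (PN56), in young adults. There were 3 PN11 WT, 3 PN11 Klf5CN, 4 PN56 WT and 4 PN56 Klf5CN arrays, each from the pooled corneas of 1 mouse. Klf5CN mice carried Klf5 loxP/loxP and 1 copy of the Le-Cre transgene. The mice called WT were littermates that also carried Klf5 loxP/loxP but no Cre, so that the floxed alleles and the mixed background were common to all groups and no Cre-only control was used. Le-Cre is active in the cells that descend from the surface ectoderm of the eye, which in the cornea means the epithelium. Keratocytes and corneal endothelium come from neural crest and are not its target.

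Collagens I and V build the thin fibrils of the corneal stroma, and the genes described here code for collagens that sit on those fibrils, between them or in separate sheets. Collagen VI is assembled from 3 different chains into beaded microfilaments that run between the fibrils and bind cells and proteoglycans. Collagen VIII forms the hexagonal lattice of Descemet's membrane, the basement membrane laid down by the corneal endothelium. Collagens IX, XII, XIV and XVI belong to the family whose triple helices are interrupted and which do not form fibrils of their own, and collagens XII and XIV are known in the cornea as partners of the stromal fibrils during development and repair. Collagen IX is best known from cartilage and the vitreous, where it decorates fibrils of collagen II.

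The genes lie on 6 chromosomes (RefSeq annotation, GRCm38.p6). Col6a1 (chr10:76708792-76726044) and Col6a2 (chr10:76595756-76623630) are neighbours on the same strand of chromosome 10, whereas Col6a3 (chr1:90766860-90844001) shares chromosome 1 with Col9a1 (chr1:24177589-24252738). Col8a1 lies at chr16:57624256-57754737 and Col8a2 at chr4:126286794-126314330, on the chromosome that also holds Col16a1 (chr4:130047817-130099277). Col12a1 lies at chr9:79598987-79721141 and Col14a1 at chr15:55307644-55520803. RefSeq promoters, from 250 bases before to 50 after a start site, were matched by symbol to 7 of the 9 genes. Those of 2 chain pairs, Col6a1 with Col6a2 and Col8a1 with Col8a2, are shown. The chains of each pair are built into the same protein assembly and moved in the same direction. Col6a3 belongs to the assembly of the first pair and also moved with it, and its promoter is given by its counts only. Capitals mark the GC box, with the letters GGGCGG, and the CACCC box, with the letters CACCC, both read on either strand. Kruppel-like factors bind both kinds of sequence. Where matches overlap, the capitals run together.
Col6a1, chr10:76725995-76726294, minus strand: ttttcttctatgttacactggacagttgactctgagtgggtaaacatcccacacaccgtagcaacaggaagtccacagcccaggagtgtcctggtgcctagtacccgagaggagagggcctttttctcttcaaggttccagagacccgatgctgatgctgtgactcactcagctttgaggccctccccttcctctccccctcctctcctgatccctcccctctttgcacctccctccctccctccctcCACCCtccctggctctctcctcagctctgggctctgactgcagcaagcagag
Col6a2, chr10:76623581-76623880, minus strand: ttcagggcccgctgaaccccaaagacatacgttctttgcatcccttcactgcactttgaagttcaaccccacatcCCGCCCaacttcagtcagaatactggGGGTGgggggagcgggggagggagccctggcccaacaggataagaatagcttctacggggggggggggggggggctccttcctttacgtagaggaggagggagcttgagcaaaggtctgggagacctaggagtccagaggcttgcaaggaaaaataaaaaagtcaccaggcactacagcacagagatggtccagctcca
Col8a1, chr16:57754688-57754987, minus strand: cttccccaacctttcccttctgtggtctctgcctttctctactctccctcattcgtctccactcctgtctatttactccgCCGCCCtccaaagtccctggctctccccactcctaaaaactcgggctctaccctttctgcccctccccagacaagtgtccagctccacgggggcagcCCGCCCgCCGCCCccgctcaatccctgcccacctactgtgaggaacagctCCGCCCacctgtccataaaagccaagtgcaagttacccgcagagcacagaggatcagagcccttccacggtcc
Col8a2, chr4:126286544-126286843, plus strand: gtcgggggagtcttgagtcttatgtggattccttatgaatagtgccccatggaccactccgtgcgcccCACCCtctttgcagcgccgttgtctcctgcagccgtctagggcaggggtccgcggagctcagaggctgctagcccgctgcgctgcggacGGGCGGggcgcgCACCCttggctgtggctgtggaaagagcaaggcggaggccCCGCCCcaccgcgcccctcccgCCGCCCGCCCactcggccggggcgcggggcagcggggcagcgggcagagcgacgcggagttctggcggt
The Col8a1 promoter held 4 GC boxes and 0 CACCC boxes, and the Col8a2 promoter 4 and 2. Col6a1 held 0 GC boxes and 1 CACCC box, and the Col6a2 promoter shown held 1 of each. A second RefSeq promoter of Col6a2 (chr10:76623355-76623654), not shown, overlaps the first and held 3 GC boxes and 1 CACCC box. The Col6a3 promoter (chr1:90843922-90844221), not shown, held 0 GC boxes and 0 CACCC boxes. A GC box was present in 35.7% and a CACCC box in 57.5% of all 32851 promoters of the same length, so that neither is rare. A match describes these letters and not a bound site.

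Klf5 itself was checked first. On probe set 1451021_a_at the log2 signal lay between 10.18 and 10.41 in PN11 WT and between 10.14 and 10.36 in PN56 WT arrays, against 6.69 to 7.15 and 4.35 to 6.44 in the Klf5CN arrays of the same ages, and a second probe set (1430255_at) fell in the same way. The remaining Klf5 probe set (1451739_at) differed by -0.83 at PN11 (limma, adjusted p = 0.0496) and -0.34 at PN56 (adjusted p = 0.29). It was the brightest tested Klf5 probe set, the kind by which each collagen gene was read below. Read that way, Klf5 itself was not called at either age, because the PN11 difference was under 2-fold. The sources used here do not give the position of this probe set relative to the deleted part. All 7 corneal epithelium and all 8 keratocyte markers were called Present on at least 1 array of every group. One PN11 Klf5CN array (replicate 3) and 1 PN56 Klf5CN array (replicate 4) stood apart in the log2 ratio of the 3-prime to the 5-prime control probe set of Actb, at 1.62 and 1.4, against 0.23 to 0.47 on the other 12 arrays. For Gapdh the same ratio was 6.18 and 0.65, against -0.54 to -0.24 on the other 12 arrays. By Gapdh the PN11 array thus stood much further apart than the PN56 array.

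At PN11 all 9 genes were called Present on every array, and none passed the test between Klf5CN and WT corneas. From PN11 to PN56 the signals of 8 of the 9 fell more than 2-fold in WT corneas, and that of Col8a2 fell just short of it. At PN56 the signals of Col14a1 and Col16a1 were higher in Klf5CN corneas, and those of both collagen VIII chains somewhat lower. The same amount of total RNA was labelled for each array, so a signal is a share of the RNA and not an amount per cornea. A gene was read by its brightest tested probe set and called changed at an adjusted p below 0.05 (limma, Benjamini-Hochberg over all tested probe sets) with a difference of more than 2-fold. At PN11, 0 of the 9 genes were higher and 0 lower in Klf5CN corneas, where 3.8% and 1.48% of the 13660 genes tested passed in those directions. At an unadjusted p below 0.05, 2 of the 9 were higher (Col8a1 by 0.56 and Col14a1 by 0.83) and 1 lower (Col9a1, -1.03), against 12.6% and 11.5% of all genes. At PN56, 2 of 9 were higher and 0 lower, against 7.1% and 1.63% of all genes, and the median difference of the 9 was 0.46 against 0.02 over all genes. With no minimum fold, 2 of 9 were lower, against 7.69% of all genes. From PN11 to PN56 in WT corneas 8 of 9 were lower and 0 higher, against 15.6% and 4.37%, and in Klf5CN corneas 9 of 9 were lower and 0 higher, against 13.4% and 4.8%. The median change with age was -3.40 in WT and -2.67 in Klf5CN corneas, where the medians of all genes were -0.11 and -0.07. The Klf5CN effect at PN56 differed from that at PN11 (adjusted p alone) upward for 1 of 9 and downward for 1 of 9, against 0.286% and 0.278% of all genes. The comparisons share arrays: the PN56 WT arrays enter both the Klf5CN effect and the change with age, so the values are given side by side and were not correlated.

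**Figure D1:**
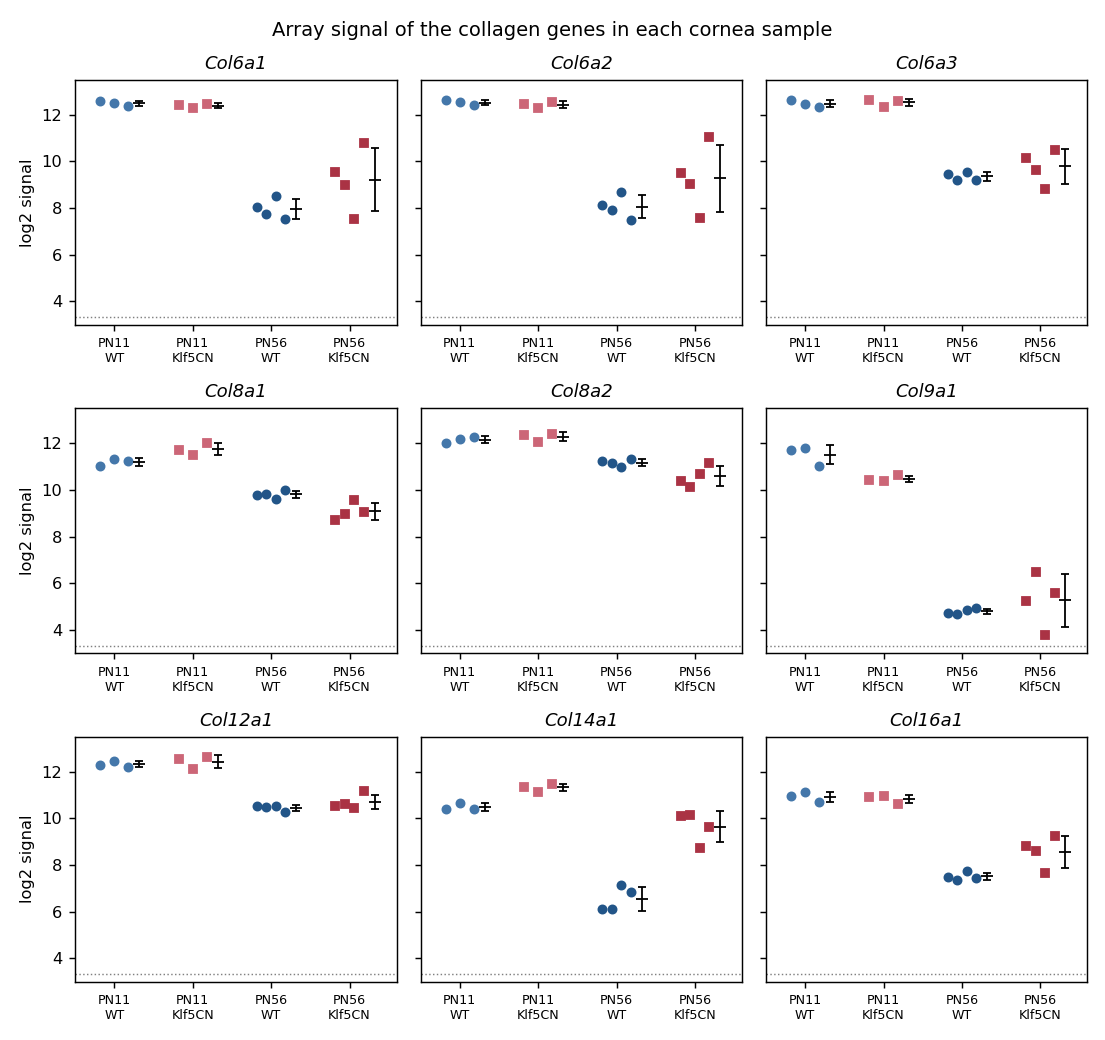
Log2 array signal (y axis) of the 9 collagen genes, 1 panel a gene, in each of the 14 arrays (points) by group (x axis), with the mean and SD of a group as a black mark and the lowest signal kept (log2 of the signal floor of 10) as a dotted line. All 9 genes are lower in both PN56 groups than in both PN11 groups, and the PN56 Klf5CN arrays spread more widely than the PN56 WT arrays.

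Collagen VI fell with age in both genotypes. Col6a1, which forms the beaded filament with the other 2 chains, had a log2 signal of 12.59, 12.49 and 12.39 in PN11 WT, 12.41, 12.27 and 12.47 in PN11 Klf5CN, 8.04, 7.76, 8.53 and 7.55 in PN56 WT and 9.53, 9.0, 7.54 and 10.81 in PN56 Klf5CN arrays. At PN11 the genotypes overlapped, and at PN56 3 of the 4 Klf5CN arrays stood above all 4 WT arrays while replicate 3 was the lowest of the 8. The mean fell from PN11 to PN56 by 4.52 in WT (SE 0.50, adjusted p = 6.1e-06, 23-fold) and by 3.16 in Klf5CN corneas (SE 0.50, adjusted p = 0.00018). At PN56 it was 1.25 higher in Klf5CN corneas (SE 0.46, adjusted p = 0.082), which did not pass. The order of the levels was thus PN11 WT and PN11 Klf5CN, which did not differ beyond their spread, then PN56 Klf5CN and PN56 WT, which overlapped.

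Col6a2 followed its neighbour closely. The log2 signal was 12.62, 12.53 and 12.42 in PN11 WT, 12.44, 12.27 and 12.56 in PN11 Klf5CN, 8.13, 7.94, 8.71 and 7.48 in PN56 WT and 9.52, 9.02, 7.56 and 11.04 in PN56 Klf5CN arrays. The same arrays were high and low as for Col6a1, with replicate 4 highest and replicate 3 lowest of the PN56 Klf5CN arrays. The change with age was -4.46 in WT (SE 0.54, adjusted p = 1.3e-05) and -3.14 in Klf5CN corneas (SE 0.54, adjusted p = 0.00034), and the PN56 Klf5CN difference of 1.22 (SE 0.50, adjusted p = 0.11) did not pass. A second Col6a2 probe set (1426947_x_at) gave -4.86 with age in WT and 1.18 for Klf5CN at PN56 (adjusted p = 0.069).

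Col6a3, the longest chain, which carries a large globular end that is cut off after secretion, fell by a smaller mean amount, and the difference between the chains was tested separately. Log2 signals were 12.64, 12.45 and 12.33 in PN11 WT, 12.64, 12.35 and 12.61 in PN11 Klf5CN, 9.46, 9.20, 9.56 and 9.21 in PN56 WT and 10.16, 9.65, 8.81 and 10.51 in PN56 Klf5CN arrays. Again 3 of the 4 PN56 Klf5CN arrays lay above the WT arrays and replicate 3 lay below them. The change with age was -3.12 in WT (SE 0.28, adjusted p = 1.1e-06) and -2.75 in Klf5CN corneas, and the PN56 Klf5CN difference was 0.42 (95% interval -0.13 to 0.98, adjusted p = 0.30).

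None of the 3 collagen VI chains passed in Klf5CN corneas at either age, and at PN56 this depended on 1 array for Col6a1 and Col6a2. Without PN56 Klf5CN replicate 3, Col6a1 was 1.81 higher (adjusted p = 0.0013) and Col6a2 1.79 higher (adjusted p = 0.0034), both past the threshold. Col6a3 was then 0.75 higher (adjusted p = 0.0083), under 2-fold. Leaving out that array also raised the calls over all genes at PN56, from 970 higher and 222 lower to 1352 and 311. Without replicate 4, the array of high 3-prime ratio, the differences of the 3 chains were 0.72 (adjusted p = 0.20), 0.63 (adjusted p = 0.29) and 0.18 (adjusted p = 0.69). The keratocyte markers were low in replicate 3 and high in replicate 4 as well. The mean log2 signal of the 8 markers of that list (Kera, Lum, Dcn, Fmod, Ogn, Pdgfra, Cd34 and Vim) was 10.26, 9.76, 8.78 and 10.70 in the 4 PN56 Klf5CN arrays and 8.74 to 9.40 in the PN56 WT arrays. Their summed signal ran from 5384 to 21320 in PN56 Klf5CN and from 5329 to 8332 in PN56 WT arrays, and all 8 were Present in every group. Of the 8, 2 were higher in Klf5CN corneas at PN56 (Cd34 by 1.61, Vim by 1.77) and 0 lower, against 7.1% and 1.63% of all genes. Lum was 0.96 higher (adjusted p = 0.019), under 2-fold. Kera (0.57, adjusted p = 0.43), Dcn (0.75, adjusted p = 0.14) and Fmod (0.98, adjusted p = 0.16) did not pass. Ogn went the other way (-0.21, adjusted p = 0.47) and did not pass either. Their part in the collagen VI values was not tested. In such bulk samples fewer cells of a type and less RNA per cell cannot be told apart.

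The collagen VIII chains showed the opposite direction to collagen VI at PN56. For Col8a1 the log2 signal was 11.02, 11.32 and 11.25 in PN11 WT, 11.73, 11.51 and 12.02 in PN11 Klf5CN, 9.80, 9.84, 9.63 and 9.98 in PN56 WT and 8.72, 8.96, 9.58 and 9.05 in PN56 Klf5CN arrays. The groups did not overlap at either age: the Klf5CN arrays were above the WT arrays at PN11 and below them at PN56. With 3 against 3 arrays, as for every gene at PN11, full separation reaches an exact permutation p of 0.1 at best. How many of all genes separated in this way was not counted, so a separation at PN11 is given as a description only. Klf5CN minus WT was 0.56 at PN11, with an SE of 0.19 and an adjusted p of 0.11. It was -0.74 at PN56 (SE 0.17, adjusted p = 0.0078, 1.67-fold lower), so that it passed the test at PN56 but not the 2-fold limit. The level fell with age by 1.38 in WT (SE 0.18, adjusted p = 2.6e-05) and by 2.67 in Klf5CN corneas (SE 0.18, adjusted p = 1.1e-07). On a second probe set (1418440_at) it fell by 2.39 in WT (adjusted p = 2.3e-07) and by 3.74 in Klf5CN corneas (adjusted p = 1.2e-08). With the mean of all Col8a1 probe sets the change in WT was -0.82 (adjusted p = 0.0057), under 2-fold, and the call ended.

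The Klf5CN effect on Col8a1 differed between the ages by -1.29 (SE 0.25, 95% interval -1.83 to -0.75, adjusted p = 0.042). By group means the order of its 4 levels was PN11 Klf5CN, PN11 WT, PN56 WT and PN56 Klf5CN, where the difference at PN11 did not pass. On 1418440_at the difference between the ages was -1.35 (adjusted p = 0.038). This call was close to the threshold: of the 14 fits that each left out 1 array, 2 kept it, those without PN56 WT replicate 3 or PN56 Klf5CN replicate 3, and over the 14 the difference ran from -1.46 to -1.16 and the adjusted p from 0.0027 to 0.13. The remaining Col8a1 probe set (1418441_at) was dim, with 5.09 to 5.26 in PN11 WT and 6.24 to 6.67 in PN56 WT arrays. It ran against the other 2 with age in WT, by 1.31 upward (adjusted p = 0.064), while at PN56 it was lower in Klf5CN like them, by 1.34 (adjusted p = 0.087).

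Col8a2, the other Descemet's membrane chain, changed less with age in WT corneas than the other 8 genes when each was read by its brightest probe set. With the mean of all probe sets of a gene Col8a1 changed less. The arrays read 12.0, 12.18 and 12.28 in PN11 WT, 12.35, 12.06 and 12.41 in PN11 Klf5CN, 11.24, 11.14, 10.99 and 11.32 in PN56 WT and 10.4, 10.14, 10.68 and 11.17 in PN56 Klf5CN arrays. Only replicate 4 of the PN56 Klf5CN arrays reached into the WT range. The PN56 difference was -0.57 (SE 0.18, adjusted p = 0.041, 1.49-fold lower), and it was -0.51 (adjusted p = 0.12) without Klf5CN replicate 1, -0.42 (adjusted p = 0.12) without replicate 2 and -0.77 (adjusted p = 0.0028) without replicate 4. With age Col8a2 fell by 0.98 in WT (SE 0.19, adjusted p = 0.00086), just short of 2-fold, and by 1.68 in Klf5CN corneas (SE 0.19, adjusted p = 1.2e-05). The fall in WT passed 2-fold without PN11 WT replicate 1 (-1.06), PN56 WT replicate 1 (-1.0) or PN56 WT replicate 4 (-1.03).

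Of 5 markers of the corneal endothelium, the cell layer that makes Descemet's membrane, 2 were lower in PN56 Klf5CN corneas, against 1.63% of all genes. The mean log2 signal of the 5 markers (Slc4a11, Slc4a4, Cdh2, Alcam and Tfap2b) was 9.36 to 9.51 in PN56 WT arrays and 8.30, 8.81, 9.08 and 9.09 in PN56 Klf5CN arrays, and their summed signal was 4271 to 4550 and 2065 to 4282. All 5 were Present in every group. Slc4a11, a transporter of the endothelial pump, was lower by 1.19 (adjusted p = 0.0028) and Slc4a4, its bicarbonate cotransporter, by 1.06 (adjusted p = 0.0024), and these were the 2 that passed. Cdh2 (-0.69, adjusted p = 0.068), Tfap2b (-0.50, adjusted p = 0.074) and Alcam (0.30, adjusted p = 0.52) did not pass. At PN11, 0 of 5 passed in either direction. Their part in the collagen VIII values was not tested.

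**Figure D2:**
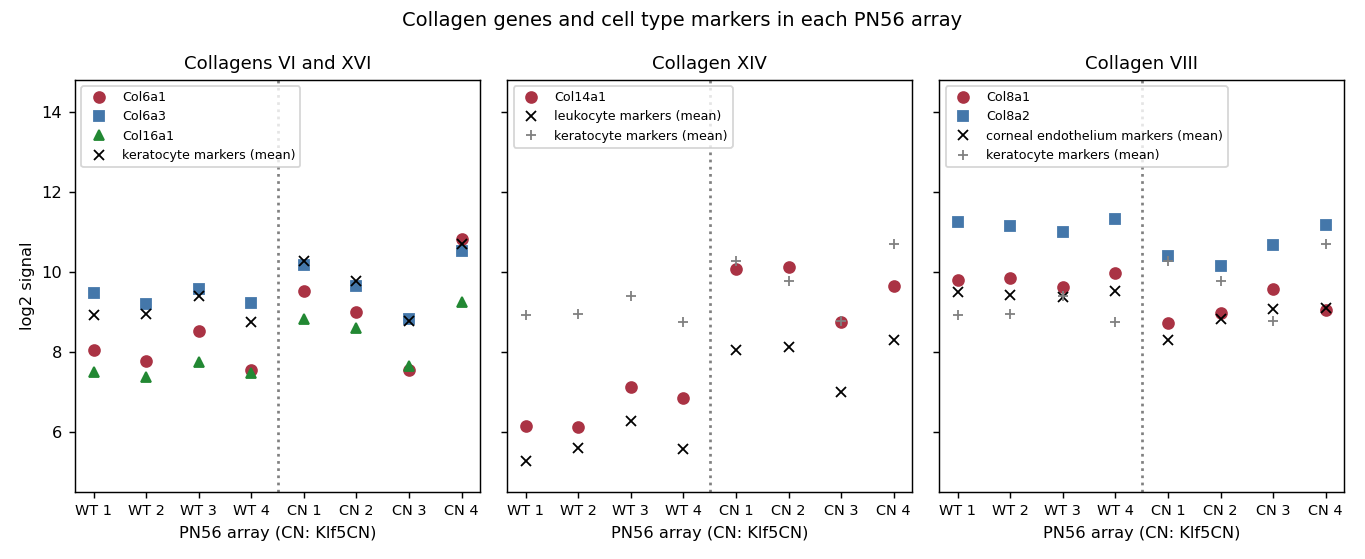
Log2 signal (y axis) of collagen genes (coloured symbols) and the mean log2 signal of cell type marker lists (crosses) in each PN56 array (x axis, 4 WT and 4 Klf5CN arrays). Collagen VI, collagen XVI and the keratocyte markers are lowest in Klf5CN array 3 and highest in array 4 among the Klf5CN arrays. The endothelial markers are lowest in Klf5CN array 1, as is Col8a1 on the plotted probe set (1455627_at). Col8a2 is lowest in Klf5CN array 2 (10.14, against 10.4 in array 1). On the Col8a1 probe sets not plotted, the lowest are Klf5CN array 2 (1418440_at, 7.38) and array 4 (1418441_at, 4.1).

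Of the fibril-associated collagens, Col9a1, a chain of the cartilage collagen IX, changed most with age. The log2 signal was 11.69, 11.8 and 11.03 in PN11 WT, 10.43, 10.39 and 10.62 in PN11 Klf5CN, 4.74, 4.7, 4.85 and 4.94 in PN56 WT and 5.25, 6.5, 3.77 and 5.57 in PN56 Klf5CN arrays. It was among the bright genes at PN11 and near the lower end of the scale at PN56, although called Present on all 14 arrays. The fall was 6.70 in WT (SE 0.42, adjusted p = 5.0e-08) and 5.21 in Klf5CN corneas (SE 0.42, adjusted p = 5.9e-07), the largest of the 9 genes in both genotypes. On the other Col9a1 probe set (1421381_a_at), which was Present on 0 of the 4 PN56 WT arrays, PN11 WT was at least 19.2-fold brighter than PN56 WT.

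At PN11 the 3 Klf5CN arrays lay below the 3 WT arrays for Col9a1 on both probe sets. The difference was -1.03 on the brighter (SE 0.45, adjusted p = 0.22), which did not pass, and -1.68 on the other (SE 0.46, adjusted p = 0.044), which did. On the dimmer probe set the values were 9.45, 9.33 and 8.51 in WT and 7.94, 7.85 and 6.45 in Klf5CN arrays, with the lowest on the array of high 3-prime ratio. Without that array, replicate 3, the difference on the dimmer probe set was -1.20 (adjusted p = 0.15), and without both arrays of high 3-prime ratio it was -1.20 (adjusted p = 0.033). Of the 14 fits that each left out 1 array, 3 kept this call, those without PN56 Klf5CN replicate 2, 3 or 4. Without PN56 Klf5CN replicate 3, which enters only through the shared spread, the brighter probe set gave the same -1.03 with an adjusted p of 0.030. At PN56 the Klf5CN difference was 0.46 (95% interval -0.38 to 1.30, adjusted p = 0.47), with arrays on both sides of the WT range. The partner chains fell less with age: Col9a2 by 1.32 (adjusted p = 0.00016) and Col9a3 by 2.15 (adjusted p = 0.00014) in WT corneas, and Col9a3 was 1.11 higher in PN56 Klf5CN corneas (adjusted p = 0.026). Cartilage and sclera markers were dim throughout, with a mean log2 signal of 5.28 to 5.41 in PN11 WT, 5.88 to 6.14 in PN11 Klf5CN, 4.44 to 4.68 in PN56 WT and 4.80 to 5.42 in PN56 Klf5CN arrays, and of its 6 genes Matn3 and Cytl1 were Present on no array of any group. Their summed signal was 388 to 503 in PN11 WT, 702 to 844 in PN11 Klf5CN, 261 to 309 in PN56 WT and 377 to 538 in PN56 Klf5CN arrays, so that at both ages the Klf5CN arrays lay above the WT arrays, whereas Col9a1 at PN11 was lower in Klf5CN arrays. Of the 4 tested, 2 fell with age in WT corneas, against 15.6% of all genes. Comp, a cartilage matrix protein, was the 1 of 4 higher in PN56 Klf5CN corneas (1.43, adjusted p = 0.029), against 7.1% of all genes. The part of these markers in the Col9a1 values was not tested.

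Col12a1, which codes for a large chain attached to stromal fibrils, had the smallest Klf5CN difference of the 9 genes at PN56. Signals on the log2 scale were 12.28, 12.46 and 12.21 in PN11 WT, 12.55, 12.11 and 12.62 in PN11 Klf5CN, 10.53, 10.47, 10.54 and 10.26 in PN56 WT and 10.55, 10.62, 10.46 and 11.17 in PN56 Klf5CN arrays. The genotypes overlapped at both ages, with differences of 0.11 (95% interval -0.28 to 0.50) and 0.25 (95% interval -0.09 to 0.58). It fell with age by 1.86 in WT (SE 0.17, adjusted p = 1.1e-06) and by 1.73 in Klf5CN corneas (SE 0.17, adjusted p = 3.1e-06). A second Col12a1 probe set (1427391_a_at) gave falls of 1.51 and 1.05 and was lowest in both ages on the arrays of high 3-prime ratio, at 8.13 and 8.0 among the Klf5CN arrays. The other 2 Col12a1 probe sets stayed under the filter on low values.

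Col14a1, the chain of collagen XIV, which binds fibrils through decorin, had the largest Klf5CN difference of the 9 genes at PN56. Its log2 signal was 10.39, 10.67 and 10.4 in PN11 WT, 11.36, 11.15 and 11.46 in PN11 Klf5CN, 6.13, 6.12, 7.13 and 6.84 in PN56 WT and 10.08, 10.13, 8.74 and 9.65 in PN56 Klf5CN arrays. The Klf5CN arrays were above the WT arrays at both ages without overlap, and the highest PN56 Klf5CN array lay just under the lowest PN11 WT array. The difference at PN56 was 3.10 (SE 0.28, 95% interval 2.50 to 3.69, adjusted p = 2.7e-05, 8.55-fold) and at PN11 0.83 (SE 0.32, adjusted p = 0.16), which did not pass. With age Col14a1 fell by 3.93 in WT (SE 0.30, adjusted p = 2.3e-07) and by 1.67 in Klf5CN corneas (SE 0.30, adjusted p = 0.00054).

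The Klf5CN effect on Col14a1 was 2.26 larger at PN56 than at PN11 (SE 0.43, 95% interval 1.35 to 3.18, adjusted p = 0.035), and 2.44 larger on the second tested probe set (1428455_at, adjusted p = 0.019). Of the 14 fits without 1 array, 3 kept this call, those without PN56 WT replicate 3, PN56 WT replicate 4 or PN56 Klf5CN replicate 3, and over the 14 it ran from 2.10 to 2.56 and the adjusted p from 0.0015 to 0.11. Without PN56 Klf5CN replicate 3 this difference between ages also passed for Col9a1 (1.99, adjusted p = 0.015) and Col16a1 (1.46, adjusted p = 0.0085). Over all genes, leaving out that array raised such calls from 39 upward and 38 downward to 206 and 90, so the gain was not particular to these collagens. The PN56 difference of Col14a1 itself passed in each of the 14 fits without 1 array and without both arrays of high 3-prime ratio. In the latter fit it was 3.10 (adjusted p = 0.00019). The order of the levels was PN11 Klf5CN, PN11 WT, PN56 Klf5CN and PN56 WT, with no overlap between neighbours, although the difference at PN11 did not pass. Leukocyte markers were also higher in Klf5CN corneas at PN56, with a mean log2 signal of 8.04, 8.13, 6.99 and 8.30 against 5.27 to 6.27 in WT arrays, a summed signal of 2339 to 8205 against 591 to 1245, and 4 of the 6 tested markers higher. Cd3e and Cd79a, the defining markers of T and B cells, were Present on no array of any group. Each was read by 1 probe set only, so this does not show that such cells were absent. At PN11 4 of the 6 tested leukocyte markers were higher as well. The share of all genes called higher was 3.8% at PN11 and 7.1% at PN56. The part of the leukocyte markers in the Col14a1 values was not tested.

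Col16a1, a chain that in skin and cartilage lies in both fibrils and microfibrils, passed at PN56 in Klf5CN corneas. The log2 signal by array was 10.96, 11.12 and 10.68 in PN11 WT, 10.92, 10.95 and 10.61 in PN11 Klf5CN, 7.5, 7.36, 7.74 and 7.46 in PN56 WT and 8.81, 8.59, 7.64 and 9.25 in PN56 Klf5CN arrays. At PN56 3 Klf5CN arrays lay above all WT arrays, and replicate 3 lay inside the WT range. The difference was 1.06 (SE 0.25, adjusted p = 0.010, 2.08-fold), and at PN11 it was -0.09 (adjusted p = 0.91). The call at PN56 ended, at 0.98, without Klf5CN replicate 1 and, at 0.83, without replicate 4, the array of high 3-prime ratio, where the fold was under 2 (adjusted p = 0.037 and 0.026). Col16a1 fell with age by 3.40 in WT (SE 0.27, adjusted p = 2.9e-07) and by 2.25 in Klf5CN corneas (SE 0.27, adjusted p = 1.7e-05).

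**Figure D3:**
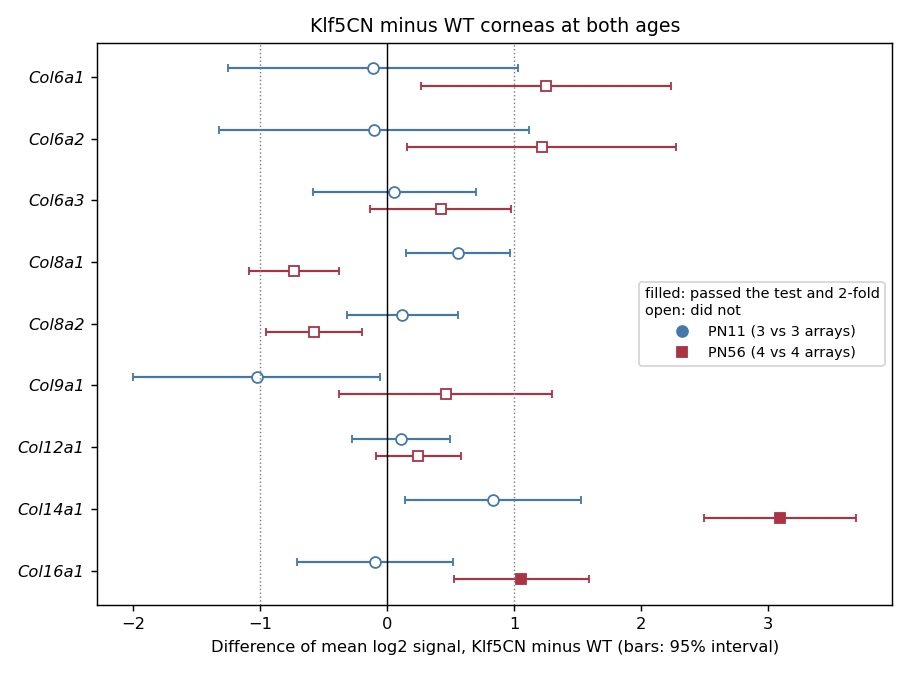
Difference of mean log2 signal between Klf5CN and WT corneas (x axis) for each gene (y axis) at PN11 (circles) and PN56 (squares), with 95% intervals and dotted lines at 2-fold. Filled symbols passed the test and the 2-fold limit, which holds for Col14a1 and Col16a1 at PN56 only.

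**Figure D4:**
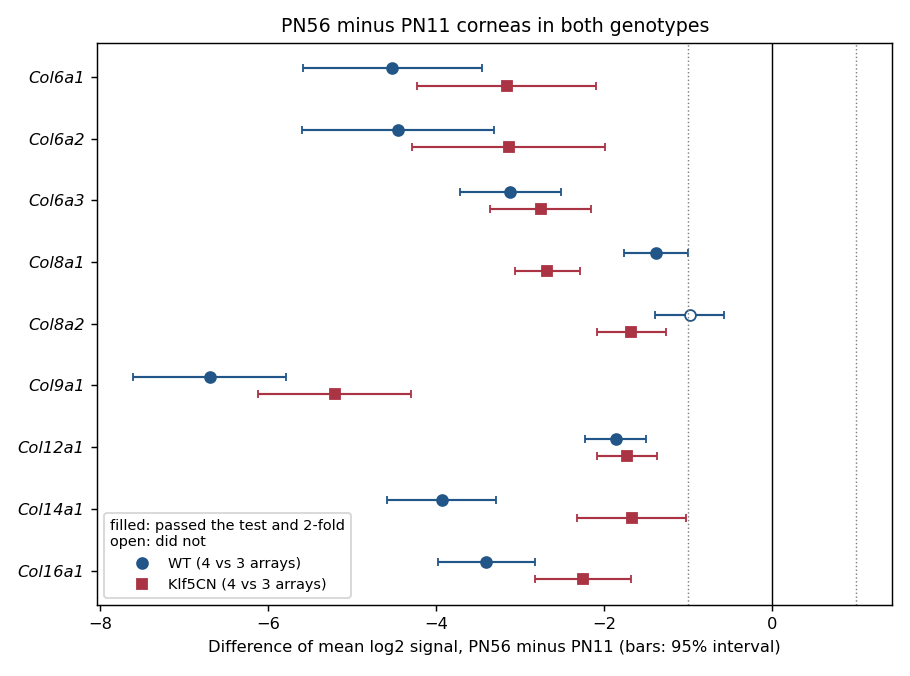
Difference of mean log2 signal between PN56 and PN11 corneas (x axis) for each gene (y axis) in WT (circles) and Klf5CN mice (squares), with 95% intervals and dotted lines at 2-fold. All values lie below 0, from -6.70 for Col9a1 to -0.98 for Col8a2 in WT, and Col8a1 and Col14a1 are the genes whose change differed between the genotypes.

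The fall with age went along with that of the keratocyte list, in which 8 of 8 genes were lower at PN56 in WT corneas (median -2.65) and 8 of 8 in Klf5CN corneas (median -1.90). Their mean log2 signal was 11.49 to 11.63 in the PN11 WT arrays, and the summed signal fell from between 34480 and 35250 to between 5329 and 8332. Markers of vessels and mural cells moved the same way, with 7 of 7 and 4 of 5 genes lower in WT corneas, while 0 of 7 corneal epithelium markers passed in either direction (median 0.11). Over all genes 15.6% were lower with age in WT and 13.4% in Klf5CN corneas. How far the marker lists bear on the collagen values was not tested. Subtracting each array's median in place of the trimmed mean moved the median of all genes by -0.23 at PN56 between Klf5CN and WT and changed the split of all called genes from 970 higher and 222 lower to 728 and 460. Under it the differences at PN56 were 2.87 for Col14a1, 0.83 for Col16a1, -0.96 for Col8a1 and -0.80 for Col8a2, and no gene of the 9 turned its direction at PN56.

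Whether chains of 1 class changed unequally was asked within arrays. The signals of 2 probe sets cannot be set against each other as amounts, so only the change of their difference between groups carries information. Col6a2 minus Col6a1 was steady, with group means of 0.03, 0.04, 0.10 and 0.06 in PN11 WT, PN11 Klf5CN, PN56 WT and PN56 Klf5CN. Col6a3 minus Col6a1 was 0.05, -0.03 and -0.06 in PN11 WT arrays and 1.43, 1.45, 1.03 and 1.66 in PN56 WT arrays, higher by 1.41 (exact permutation test over arrays, two-sided, p = 0.0571, the smallest 3 against 4 arrays allow). In PN56 Klf5CN arrays the same difference was 0.63, 0.65, 1.27 and -0.30, lower by 0.83 than in WT (exact permutation p = 0.0571). Without replicate 4, the array of high 3-prime ratio and the one negative value, it was lower by 0.54 (exact permutation p = 0.114).

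For the collagen VIII chains, Col8a2 minus Col8a1 was 0.40 higher at PN56 than at PN11 in WT (0.96 ± 0.09, SD, n = 3, to 1.36 ± 0.05, n = 4, exact permutation p = 0.0571) and 1.0 higher in Klf5CN corneas (exact permutation p = 0.0571). With the mean of all probe sets of each gene the difference was -0.16 in WT and 0.44 in Klf5CN corneas. Col14a1 minus Col12a1 was -4.40, -4.36, -3.41 and -3.42 in PN56 WT and -0.46, -0.49, -1.72 and -1.52 in PN56 Klf5CN arrays, higher by 2.85 without overlap (exact permutation p = 0.0286, the smallest 4 against 4 arrays allow). Over the 16 such differences computed, 0 passed after Benjamini-Hochberg adjustment, and the lowest adjusted p was 0.15. Few arrays and 16 tests leave little room for a call here.

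**Figure D5:**
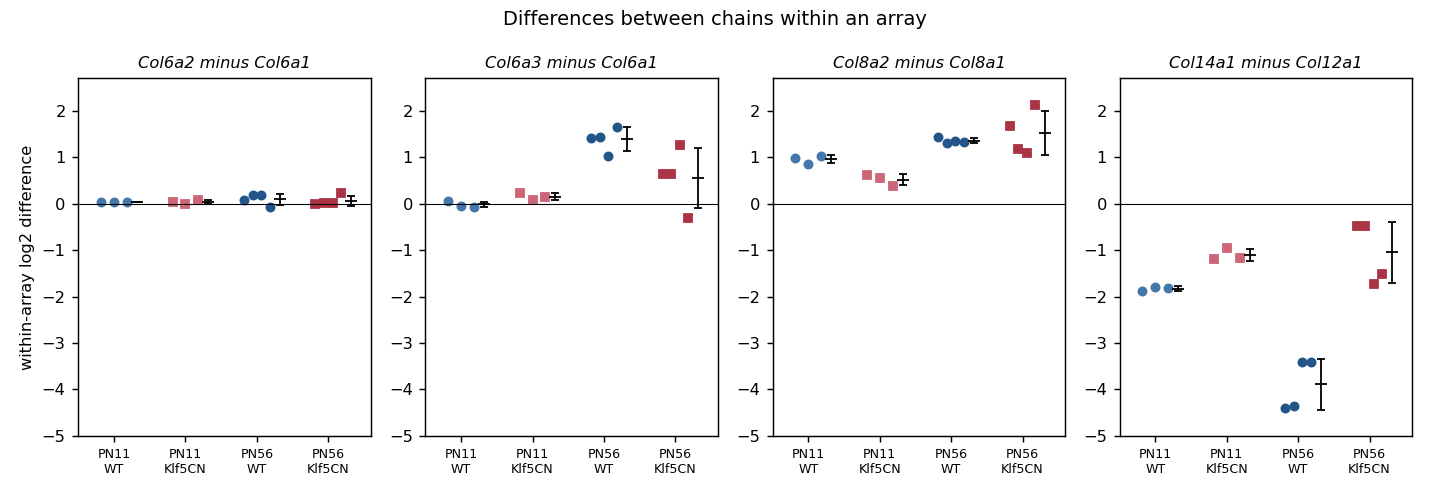
Difference of log2 signal between 2 chains within each array (y axis, points) by group (x axis), with the mean and SD of a group as a black mark, for 4 chain pairs. Col6a2 minus Col6a1 stays near 0 in all 14 arrays, whereas Col14a1 minus Col12a1 is lowest in the 4 PN56 WT arrays.

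Other collagens and the genes that work with them are given for context from lists of known function. Over all genes, 7.1% were higher and 1.63% lower in PN56 Klf5CN corneas, and 15.6% were lower with age in WT corneas. Of 11 fibril-forming collagens, 11 were lower at PN56 in WT corneas (median -3.75), led by Col11a1 (-6.61), Col5a1 (-5.74) and Col5a2 (-4.66), which set the width of the fibrils. In PN56 Klf5CN corneas 5 of the 11 were higher, among them Col3a1 (2.91, adjusted p = 0.00033), Col1a1 (1.88, adjusted p = 0.019) and Col5a2 (1.81, adjusted p = 0.0064). Of 14 basement membrane, anchoring and transmembrane collagens, 3 were higher and 2 lower at PN56. Col18a1, the source of endostatin, was 1.95 higher and Col15a1 1.79 higher. Col4a3 and Col4a4, chains of the collagen IV network, were 2.01 and 1.60 lower.

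Of 14 matrix partners, 6 were higher and 0 lower in PN56 Klf5CN corneas (median 0.97). Tnc, the wound matrix glycoprotein tenascin C, was 2.62 higher (adjusted p = 0.00075) and was the only gene of this list to pass at PN11 (1.92, adjusted p = 0.025). Matn2, an adaptor of matrix filaments, was 2.50 higher (adjusted p = 1.8e-05) and Postn, periostin, 2.02 higher. Of 10 collagen receptors 1 was higher, Antxr2, which binds collagen VI, by 1.12 (adjusted p = 0.024). That count is near the 7.1% of all genes. Of 15 genes of collagen synthesis and crosslinking 4 were higher and 0 lower at PN56, led by Lox (1.73), P4ha2 (1.31) and Plod2 (1.27), which crosslink collagen or hydroxylate its prolines and lysines. With age in WT corneas 13 of 14 partners, 5 of 10 receptors and 11 of 15 synthesis genes were lower.

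For each of the 9 genes the most similar other gene was the one with the smallest root mean square difference of mean-centred log2 signal over the 14 arrays, among 13651 genes. Col6a1 was nearest to Col5a2 (0.29), Col6a2 to Creb3l1 (0.31) and Col6a3 to Clec11a (0.24). Col8a1 was nearest to Kank4 (0.26) and Col8a2 to Tm7sf3 (0.17). Col12a1 lay nearest to Tceal9 (0.14) and Col16a1 to Mrc2 (0.20), a receptor that takes up collagen fragments. The largest of these distances were those of Col9a1 and Col14a1, whose nearest genes, Rian and Pxdn, lay at 0.57 and 0.41. The measure is not scaled to the range of a gene, so the distances of different members cannot be ranked as closeness of profile.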

How the data were processed

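Corneal RNA of 14 mice was labelled and hybridised to Affymetrix mouse genome arrays. The deposited intensity values are signals on a linear scale that the authors made with GCOS 1.4, scaling each array to a 2% trimmed mean of 150. No depth applies to arrays, and the number of mice limits precision. Deposited columns of Present calls per group were used as pooled counts, and the authors' pairwise change calls were not used.

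Signals under 10 (29.5% of values) were raised to 10 before taking log2. Only probe sets with signals over 20 on 3 or more arrays entered the test: 29416 probe sets of 13660 genes, with 15 of the 18 collagen probe sets. A gene was read by its brightest tested probe set of 1 symbol in the platform annotation. A linear model over all 14 arrays was fitted with limma 3.58.1 (R 4.3.3, eBayes with a trend, two-sided), tested on simulated data, and p-values were given Benjamini-Hochberg adjustment across the probe sets tested. Intervals are 95%. Chain differences were compared with exact permutation tests (scipy 1.17.1). Python 3.11.15, pandas 2.3.3, numpy 2.4.6 and matplotlib 3.10.9 served for tables and plots. Each mouse is 1 replicate.

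The rank sum rule of the methods cannot go below 0.1 with 3 against 3 arrays and was run as an alternative. Other alternatives changed the scaling, the lowest signal, the filter, the probe set of a gene, the model and the arrays used. Same-numbered arrays deviated from their group means with correlations from -0.195 to 0.192, so replicate numbers were not taken to pair mice.

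The genes named are the 9 collagens with every probe set, Klf5, at most the 3 called genes of largest difference in each list of collagens, partners, receptors and synthesis enzymes, the nearest gene of each member and defining cell type markers. Col4a4 was added after its value was seen. The members, lists and tests were chosen with earlier results of these data known.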

Additional observations from a re-analysis of the deposited data

Results flagged for a closer look

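On the second tested Col14a1 probe set (1428455_at), PN56 Klf5CN replicate 3 read log2 7.45 and stood apart from the other 3 arrays of its group, which read 8.84 to 9.11. It was the 1 far array found in 30 groups of 4 arrays tested, and chance alone gives about 1 in 20. The Klf5CN effect differed between the ages for Col8a1 (-1.29, PN56 minus PN11) and for Col14a1 (2.26), by a test of the difference itself.

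Probe sets under the filter on low values read above the highest control array in 3 cases, with few Present calls. The Col12a1 probe set 1440101_at read 3.96 in PN56 Klf5CN replicate 4, where the highest WT array read 3.57. This probe set was Present on 0 of the 4 PN56 Klf5CN arrays, and on 1 PN11 WT and 1 PN56 WT array. The Col14a1 probe set 1453931_at read 4.26 in PN56 Klf5CN replicate 1 and 5.53 in replicate 2, where all WT arrays were at the signal floor of 10. It was Present on 1 of the 4 PN56 Klf5CN arrays, and the pooled counts do not tell which.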

How the results depend on the processing

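Of 630 values that the 21 called differences took under 31 alternatives, 586 kept the call, 44 lost it and 0 turned direction. Most of the 44 belonged to the difference between the Klf5CN effects. Leaving out 1 array ended that call in 12 of 14 fits for Col8a1 and in 11 of 14 for Col14a1. The count of collagens lower in Klf5CN at PN11, 0 as reported, was 1 with the mean of all probe sets of a gene, with only the groups compared and by the rule of the methods, and 0 to 1 without 1 array. The count higher at PN56, 2 as reported, was 1 with array medians subtracted, with log2 of the signal plus 16, with only the groups compared, with the Actb ratio as a covariate and without both arrays of high 3-prime ratio (a choice made after seeing the data), and 1 to 4 without 1 array. With no minimum fold, 2 were lower at PN56. The difference between the Klf5CN effects, upward for 1 collagen, was upward for 0 with signals under 32 set to 32, no filter, no trend or without both arrays of high 3-prime ratio, and for 0 to 3 without 1 array. Downward, also 1, it was 0 with array medians subtracted, no filter, the mean of probe sets, no trend or without both arrays, and 0 to 1 without 1 array. With the replicate block, overall or within age, both counts were 0, while the block kept 2 collagens higher at PN56 and gave 9 lower with age in WT against 8. That count was 7 with the mean of all probe sets of a gene, where Col8a1 changed by -0.82. The cause was not tested. The arrays of a block share only a number.

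Counts over all genes also moved. At PN56, 222 lower genes became 460 with array medians subtracted, 139 with log2 of the signal plus 16 and 1051 with no minimum fold, and 970 higher genes became 513 with signals under 32 set to 32 and 1606 with no minimum fold. At PN11, 519 higher genes became 345 with signals under 32 set to 32, 337 with the block within age and 279 without PN11 WT replicate 1, and 202 lower genes became 475 with no minimum fold and 114 without that array. With the probe set of largest variance, 1842 genes were higher with age in WT corneas in place of 597, and 1895 in Klf5CN corneas in place of 656. With no minimum fold, genes higher and lower with age numbered 2077 and 3747 in WT and 2058 and 3445 in Klf5CN corneas, against 2132 and 1836 lower as reported. The 39 and 38 genes whose Klf5CN effect differed between the ages ranged from 8 to 206 and from 12 to 127, with the 206 reached without PN56 Klf5CN replicate 3. The fits limited to the groups compared and the rule of the methods give no difference between the effects, and the block within age gives no comparison of ages. Chain differences stayed at 0 calls under each alternative run, and with so few arrays this says nothing of their stability.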
